A study of Danio rerio with 24 samples.

Results

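In sorted endodermal cells of zebrafish embryos, 33 of 33736 genes met a rule for being higher after retinoic acid (RA) than after the solvent DMSO at the 3-somite (3-S) stage and within a set limit of DMSO, or below it, at the 8-somite (8-S) stage. The genes were chosen from measured values, as group means of log2(CPM + 1), where CPM is a gene's count scaled to a common library total. A gene was taken when RA was at least 1.5 above DMSO at 3-S, when every RA library lay above every DMSO library at 3-S, and when RA was less than 0.5 above DMSO at 8-S. Because these conditions used all RA and DMSO libraries, every RA and DMSO value below is a description, and counts of calls on these libraries restate the choice. Of the 33 genes, 28 had a symbol and 5 are given by their Ensembl ID alone.

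RNA-seq counts were analysed for 24 libraries, with 3 libraries in each of 8 groups. All embryos carried the Tg(sox17:GFP) transgene, in which regulatory sequence of sox17 drives GFP, and were kept at 23 degrees. They were exposed to RA, to BMS493 (an inverse agonist acting on every type of RAR) or to DMSO from the 2-cell stage until 3-S. GFP+ endodermal cells were sorted from the embryos of each treatment, and GFP- non-endodermal (NE) cells only from DMSO embryos. Cells were taken at 3-S, at the end of exposure, or at 8-S, after the embryos had been washed and raised further without the compounds. Stage and washing therefore changed together, and no group was kept in RA until 8-S, so that their parts cannot be told apart. The sources do not say whether replicates were separate clutches, and p-values measure the spread between these libraries.

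RA is a signal made from vitamin A that enters cells and binds nuclear receptors (RAR, paired with RXR) sitting on DNA, which then activate nearby genes, while Cyp26 enzymes degrade it. In the vertebrate endoderm, RA signalling sets position along the body axis and is needed for the pancreas to form. An inverse agonist such as BMS493 strengthens the repressive state of the receptors.

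The libraries held 9971059 to 17806766 gene counts (median 12791573), so that 3 counts corresponded to 0.209 to 0.390 CPM, a floor that covers counting error only. The ratio of counts on the opposite strands was 1.03 to 1.11 in the 3-S libraries and 0.991 to 1.01 in the 8-S libraries, and whether this split came with the stage or with the way libraries were prepared cannot be told apart. Of 9 endoderm marker names, 5 matched a symbol, giving 6 gene IDs. FOXA2 (ENSDARG00000003411) averaged 17.7 CPM in NE 3-S and 294 in DMSO 3-S, while cldn15la was at or near 0 in every group. The IDs of foxa3, GATA5 and CXCR4 (ENSDARG00000057633) were also higher in DMSO 3-S. Another CXCR4 ID, ENSDARG00000041959, went the other way, with 60.9 CPM in NE 3-S and 8.91 in DMSO 3-S. The summed endoderm markers were 146 to 217 CPM in NE libraries and 653 to 1523 in GFP+ libraries. In bulk samples, fewer cells of a type and less RNA per cell cannot be told apart.

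RA 8-S replicate 1 decided much of the choice. Its correlation with the other RA 8-S libraries across genes was 0.944 and 0.940, against 0.967 between those. It was not the only library of this kind, since DMSO 3-S replicate 1 (0.917 and 0.929, against 0.977) and BMS493 3-S replicate 2 (0.932 and 0.924, against 0.974) were less like their mates. By chi-square per degree of freedom over genes, RA 8-S replicates 2 and 3 differed as much from each other (139.18) as from replicate 1 (146.64 and 136.44). It was the lowest of the RA 8-S libraries in 24 of the 33 genes, against 48.2% of all genes with at least 1 CPM in a group and 68.9% of the other genes raised by RA at 3-S. Without it, only 10 of the 33 still met the conditions: s100s, itga6l, WNT4, ENSDARG00000038974, DUSP28, siae, MOCS3, hsd17b14, MOSMO and HS6ST1. The median RA minus DMSO difference of the 33 at 8-S was 0.31 on the log2(CPM + 1) scale with all libraries and 0.66 without it, and 7 genes then lay at 1 or above. In all 33 the 8-S difference without this library was still below the 3-S difference. The conditions also used the remaining libraries, so this is favoured in advance and nothing is read from it. DMSO 8-S replicate 1 mattered in the other direction, being the highest DMSO 8-S library in 26 of the 33 (45.7% of all genes), and 21 of the 33 met the conditions without it. With neither library 7 did so. Over the 12 RA and DMSO libraries left out in turn, 4 genes met the conditions each time (s100s, itga6l, WNT4 and ENSDARG00000038974) and 16 at least 10 times. Meeting the 8-S condition thus depends on RA 8-S replicate 1 for 23 of the 33, and it does not by itself mean that RA cells returned to a control level. Of the 10 that met it without this library, WNT4, MOCS3, hsd17b14 and MOSMO were at least 0.5 higher in DMSO 8-S only. With all libraries their RA cells changed by -0.31, 0.003, 0.12 and -0.23 from 3-S to 8-S.

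**Figure D1:**
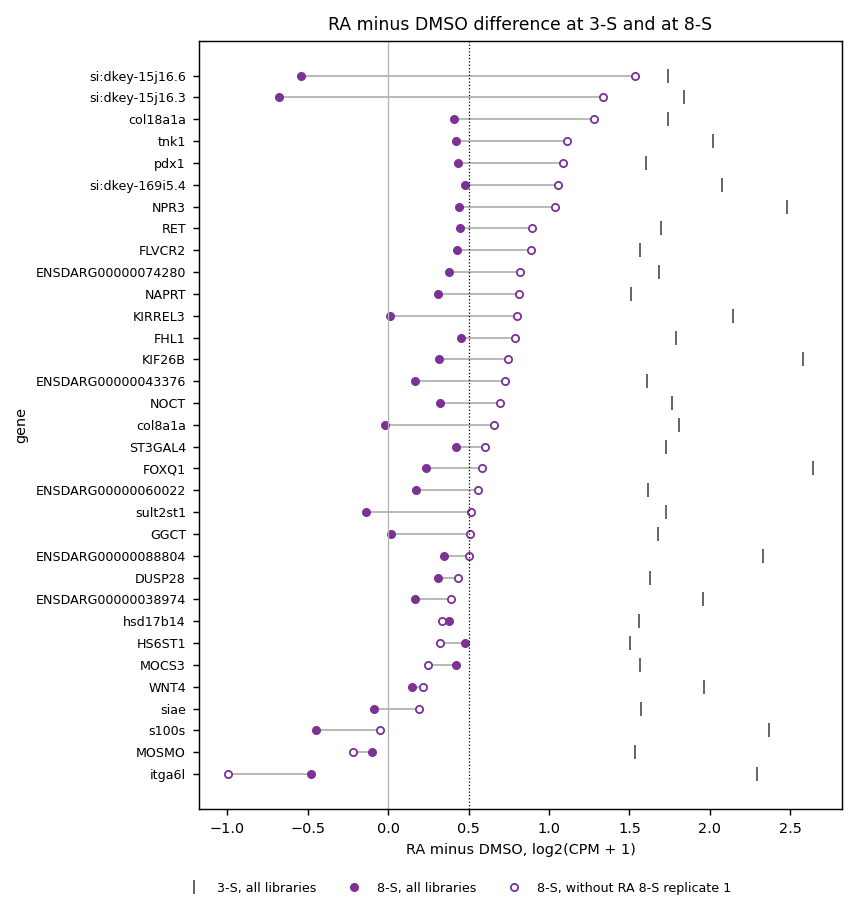
RA minus DMSO differences of the 33 genes on the log2(CPM + 1) scale, at 3-S (grey ticks), at 8-S with all libraries (filled circles) and at 8-S without RA 8-S replicate 1 (open circles). The dotted line is the limit of 0.5, and 23 open circles lie at or beyond it. Every open circle lies left of its tick, which the choice of genes favours in advance.

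At 3-S the RA minus DMSO difference of the 33 genes had a median of 1.74 (1.501 to 2.64), and at 8-S it had a median of 0.31 (-0.68 to 0.48). The 3-S conditions alone selected 351 genes, 2.12% of those with at least 1 CPM in a group, and the 33 were 9.40% of them. The other 318 had medians of 2.14 at 3-S and 1.41 at 8-S. Of the 33, 18 were within 0.3 to 0.5 at 8-S and 8 were below 0. Every RA 8-S library lay above every DMSO 8-S library in 1 gene, hsd17b14 (5.2% of genes), and below in 0 (10.3%). Expression was low in part of the set, with a mean under 5 CPM in RA 3-S in 9 genes.

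The genes nearest the limits show how narrow they were. Just inside 1.5 at 3-S were HS6ST1 (1.5011), NAPRT (1.51) and MOSMO (1.53), and just outside were MYLIP (1.4987), ENSDARG00000045627 (1.49) and slc25a22a (1.48). Just inside 0.5 at 8-S were HS6ST1 (0.48), si:dkey-169i5.4 (0.47) and FHL1 (0.45), and just outside were si:ch211-106h4.4 (0.52), ALCAM (0.53) and prxl2b (0.53).

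The difference between RA and DMSO can close because RA cells are lower at 8-S, because DMSO cells are higher, or both. The 33 genes divided almost evenly. RA cells were at least 0.5 lower at 8-S with no such change in DMSO cells in 10 genes, DMSO cells were at least 0.5 higher with no such change in RA cells in 11, and both applied in 12. RA was at least 0.5 lower in 22 genes in all (17.4% of genes with at least 1 CPM), 7 of them with libraries that did not overlap (6.17%). DMSO was at least 0.5 higher in 23 (17% of genes), 13 of them without overlap (7.73%). Since the conditions used these libraries, nothing is read from the excess over the background. Without RA 8-S replicate 1 the first count was 13 of the 33, and without DMSO 8-S replicate 1 the second was 18. The median change from 3-S to 8-S was -0.78 in RA cells and 0.75 in DMSO cells, against -0.01 and 0.08 over all genes with at least 1 CPM. In the libraries the conditions did not use, it was -0.13 in BMS493 cells (all genes -0.01) and 0.18 in NE cells (all genes 0.06). NE libraries shared deviations from group means with DMSO libraries of the same number, so the NE value is not fully free of the choice.

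**Figure D2:**
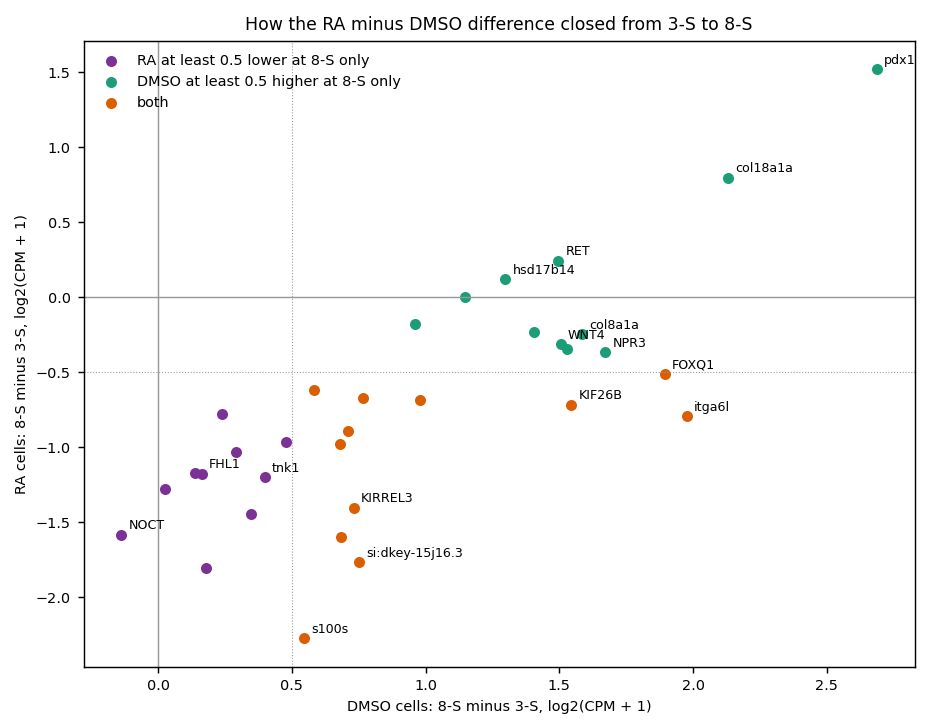
Change from 3-S to 8-S in DMSO cells (horizontal) and in RA cells (vertical) for the 33 genes, in group means of log2(CPM + 1), coloured by which group changed by at least 0.5 in the closing direction. The 10 purple genes were lower in RA cells only, the 11 green genes higher in DMSO cells only, and the 12 orange genes both, with s100s lowest and pdx1 farthest right.

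**Figure D3:**
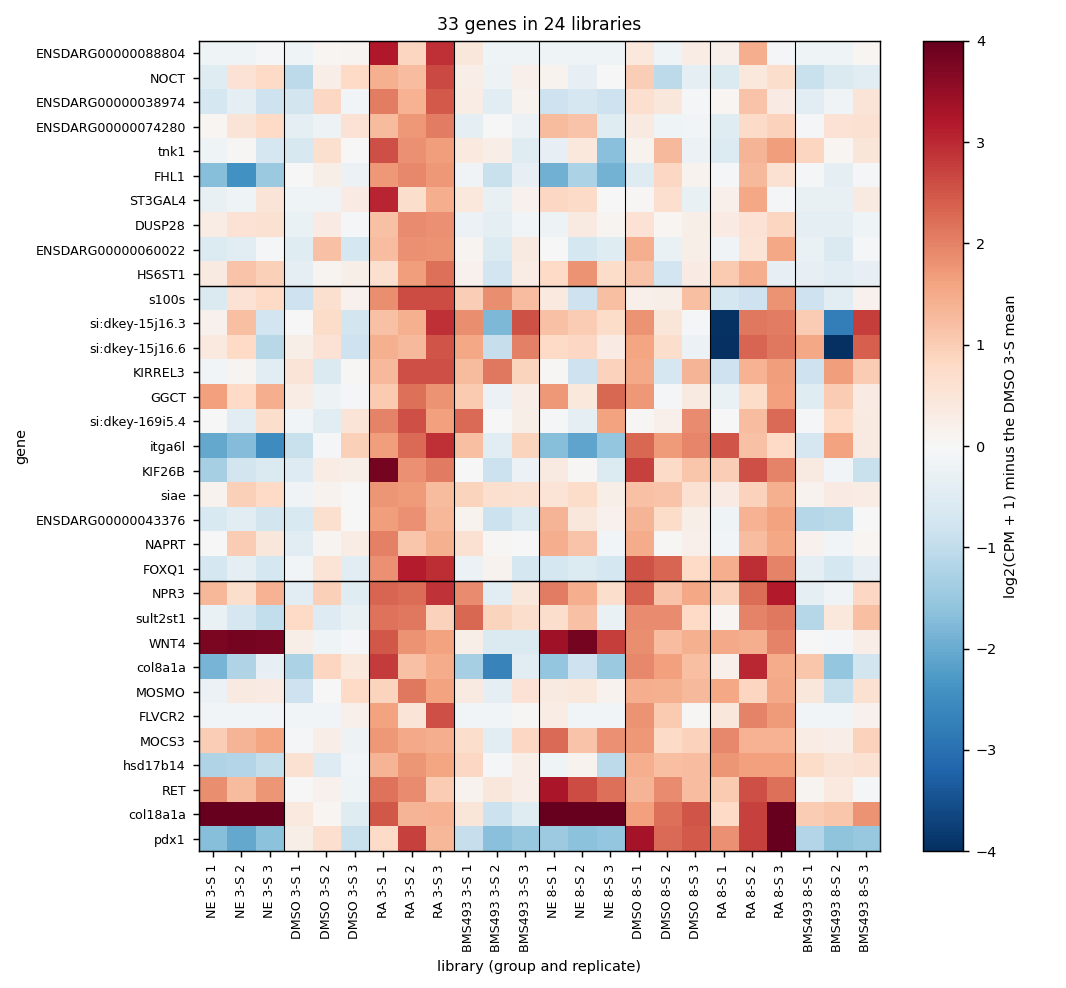
The 33 genes in each of the 24 libraries, as log2(CPM + 1) minus the mean of the DMSO 3-S libraries, with colours ending at -4 and 4. Horizontal lines separate the 10 genes lower in RA cells only, the 12 with both changes and the 11 higher in DMSO cells only; RA 8-S replicate 1 is paler or bluer than its mates in many rows.

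Among the 10 genes lower in RA cells only, those without overlap between the RA stages included a clock-linked phosphatase, a kinase and a LIM-domain protein. NOCT (ENSDARG00000078525), nocturnin, a phosphatase linked to the circadian clock, had 4.53, 3.90 and 11.8 CPM in RA 3-S and 0.395, 1.77 and 2.33 in RA 8-S. In DMSO it had 0, 1.46 and 2.59 CPM at 3-S and 3.12, 0 and 0.607 at 8-S. All RA 3-S libraries were thus above all RA 8-S and DMSO libraries, and the change in RA cells was -1.58. The non-receptor tyrosine kinase tnk1 (ENSDARG00000069433) had 33.3, 19.3 and 17.3 CPM in RA 3-S and 2.92, 13.7 and 17.2 in RA 8-S. Its DMSO libraries had 2.67, 8.01 and 4.74 CPM at 3-S and 5.33, 13.2 and 3.84 at 8-S. The RA 8-S libraries of tnk1 spread widely and its highest nearly met the lowest RA 3-S library.

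FHL1 (ENSDARG00000056653), a LIM-domain protein known from muscle, was the most even of these genes in RA 3-S, with 39.7, 45.3 and 39.5 CPM. It had 10.8, 28.9 and 17.7 CPM in RA 8-S, against 11.2, 13.4 and 9.48 in DMSO 3-S and 7.66, 20.9 and 12.6 in DMSO 8-S. RA 8-S therefore lay apart from RA 3-S and overlapped DMSO 8-S. DUSP28, a dual-specificity phosphatase, and the unnamed ENSDARG00000038974 and ENSDARG00000074280 were also lower in RA 8-S without overlap, with changes of -1.03, -1.45 and -1.28. ST3GAL4, a sialyltransferase, HS6ST1, which sulphates heparan sulphate, ENSDARG00000088804 and ENSDARG00000060022 changed by -1.17, -0.78, -1.80 and -0.97 with overlapping libraries. For ENSDARG00000088804, RA 3-S replicate 2 had 1.06 CPM beside 9.56 and 7.56 in the others.

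Of the 12 genes with both changes, s100s (ENSDARG00000036773), of the S100 calcium-binding family, showed the greatest narrowing, 2.82 on the log2(CPM + 1) scale. It had 5.41, 9.84 and 9.80 CPM in RA 3-S and 0.079, 0 and 5.16 in RA 8-S, where 1 library was near the RA 3-S level and the other two were under the floor of 3 counts. Its DMSO libraries had 0, 1.77 and 0.970 CPM at 3-S and 1.04, 1.06 and 3.03 at 8-S. RA 3-S was apart from RA 8-S, and RA 8-S spanned the whole DMSO range.

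FOXQ1 (ENSDARG00000030896), a forkhead transcription factor, had the greatest difference at 3-S, with 4.78, 13.3 and 11.5 CPM in RA and 0.486, 1.35 and 0.216 in DMSO. At 8-S it had 3.40, 11.6 and 5.41 CPM in RA and 8.44, 7.21 and 1.82 in DMSO. RA libraries overlapped between the stages, while all DMSO 8-S libraries were above all DMSO 3-S libraries, so that FOXQ1 met the 8-S condition mostly through its level in DMSO cells (1.89 higher). The integrin alpha subunit itga6l (ENSDARG00000056018), which binds cells to matrix, had 17.2, 26.6 and 42.6 CPM in RA 3-S and 32.0, 11.9 and 8.91 in RA 8-S. In DMSO it had 2.11, 4.48 and 10.02 CPM at 3-S and 27.0, 17.6 and 20.9 at 8-S. Here RA 8-S replicate 1 was the highest of its group, and the DMSO stages did not overlap.

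Other adhesion and cytoskeletal genes with both changes were KIRREL3, an immunoglobulin-superfamily adhesion protein, and KIF26B, of the kinesin family. KIRREL3 (ENSDARG00000075806) had 3.39, 9.57 and 9.62 CPM in RA 3-S and 0, 3.64 and 4.75 in RA 8-S. For KIF26B (ENSDARG00000013343) the RA 3-S libraries had 65.4, 15.8 and 18.9 CPM and the DMSO 8-S libraries 30.4, 7.09 and 9.20. In both genes a single library lay far from the others of its group. The enzymes GGCT (glutathione cycle), siae (removal of acetyl groups from sialic acids) and NAPRT (NAD synthesis) changed by -0.98, -0.68 and -0.62 in RA cells and by 0.68, 0.98 and 0.58 in DMSO cells. The unnamed ENSDARG00000043376 and si:dkey-169i5.4 changed by -0.67 and -0.90 in RA cells and by 0.77 and 0.71 in DMSO cells.

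A pair of genes, si:dkey-15j16.3 (ENSDARG00000042683) and si:dkey-15j16.6 (ENSDARG00000042698), met the 8-S condition through 1 library. The first had 0.395, 92.5 and 89.0 CPM in RA 8-S and 47.5, 56.6 and 165 in RA 3-S, and the second had 1.74, 222 and 191 CPM in RA 8-S and 117, 108 and 250 in RA 3-S. Apart from RA 8-S replicate 1, RA libraries at 8-S were as high as at 3-S, and without it the 8-S difference from DMSO was 1.33 and 1.53. Both genes were also nearly missing from BMS493 8-S replicate 2, with 2.17 and 0.155 CPM beside 43.1 and 145 CPM for the first and 130 and 234 CPM for the second in the other replicates. They were low in BMS493 3-S replicate 2 as well. There the first had 5.25 CPM beside 77.5 and 124, and the second 22.5 CPM beside 128 and 178. Low values of the pair thus occurred at both stages and in both treatments. Reads that map to several places were not counted, and the values of genes with near-identical copies are uncertain; whether this pair, listed under neighbouring names, has such copies was not tested.

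The 11 genes higher in DMSO cells only included the ligand, the receptors and the pancreas regulator of the set. WNT4 (ENSDARG00000071208), a secreted Wnt ligand, had 0.729, 0.312 and 0.431 CPM in DMSO 3-S and 4.42, 2.48 and 2.93 in DMSO 8-S. In RA it had 7.29, 4.17 and 3.52 CPM at 3-S and 3.24, 3.02 and 4.91 at 8-S. The DMSO stages were apart, while the RA stages and both treatments at 8-S overlapped. RET (ENSDARG00000055305), the receptor tyrosine kinase for ligands of the GDNF family, had 0.243, 0.416 and 0.108 CPM in DMSO 3-S and 2.21, 3.66 and 1.92 in DMSO 8-S. Its RA libraries had 4.65, 3.63 and 1.55 CPM at 3-S and 1.58, 6.45 and 4.75 at 8-S, which overlap. NPR3 (ENSDARG00000035253), which clears natriuretic peptides, changed by 1.67 in DMSO cells and by -0.37 in RA cells.

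The homeobox gene pdx1 (ENSDARG00000002779), required for the pancreas, had the greatest change in DMSO cells, 2.69. It had 4.29, 6.14 and 1.40 CPM in DMSO 3-S and 43.8, 20.8 and 23.9 in DMSO 8-S. In RA it had 6.66, 28.7 and 10.2 CPM at 3-S and 14.8, 28.6 and 127 at 8-S. RA cells thus held more pdx1 at 8-S than at 3-S on average (1.52), while DMSO 8-S libraries lay within the range of RA 8-S libraries. The 8-S condition rested on single libraries. The 8-S difference was 1.09 without RA 8-S replicate 1 and 0.75 without DMSO 8-S replicate 1, and pdx1 failed the condition in both cases.

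**Figure D4:**
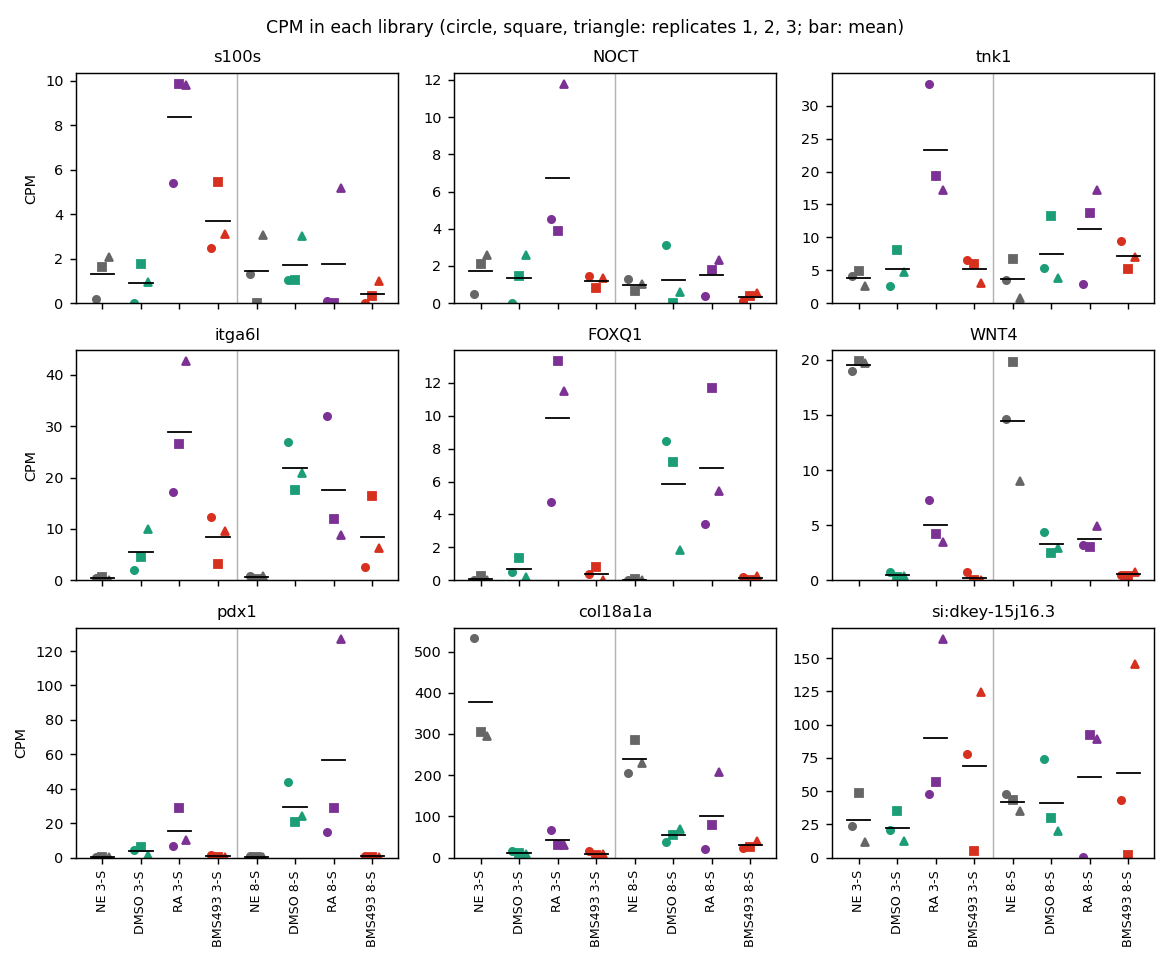
CPM of 9 of the genes in each library, with the 4 cell groups at 3-S on the left of each panel and at 8-S on the right. Points are replicates and the black bar is the mean; the vertical axis starts at 0 in each panel. For pdx1 the DMSO 8-S libraries at 20.8 to 43.8 CPM lie above all DMSO 3-S libraries, whereas for s100s the RA 8-S libraries lie below all RA 3-S libraries.

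Both matrix genes of this group were higher in DMSO 8-S than in DMSO 3-S. The basement membrane collagen col18a1a (ENSDARG00000036558) had 14.9, 11.8 and 7.65 CPM in DMSO 3-S and 36.9, 55.1 and 68.7 in DMSO 8-S, and 66.0, 29.9 and 30.8 in RA 3-S and 19.8, 78.7 and 206 in RA 8-S. Another collagen, col8a1a (ENSDARG00000077403), had 3.24, 17.5 and 12.6 CPM in DMSO 3-S and 37.4, 30.6 and 22.6 in DMSO 8-S. The DMSO stages did not overlap in either gene, while RA 8-S libraries ranged widely in both. Of the enzymes, hsd17b14, a hydroxysteroid dehydrogenase, MOCS3, of molybdenum cofactor synthesis, and sult2st1, a sulfotransferase, were 1.30, 1.15 and 1.53 higher in DMSO 8-S, the first 2 without overlap. MOSMO, which modulates the Hedgehog transducer Smoothened, was 1.40 higher without overlap. FLVCR2, a transporter, was 0.96 higher with overlapping libraries, and all DMSO 3-S libraries were under the floor of 3 counts. All of these genes changed by less than 0.5 in the downward direction in RA cells.

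Some of the marker lists named for other cell types were higher in DMSO 8-S than in DMSO 3-S, and others overlapped. The 10 mesoderm and muscle markers summed to 119 to 197 CPM in DMSO 3-S and 579 to 817 in DMSO 8-S, and to 5.78 to 20.5 CPM in RA 3-S and 25.6 to 48.1 in RA 8-S. They summed to 145 to 182 CPM in BMS493 3-S and 304 to 550 in BMS493 8-S, and to 1067 to 1961 in NE libraries, with none of the 10 at 0 in any group. The 21 neural markers summed to 952 to 1000 CPM in DMSO 3-S and 1302 to 1689 in DMSO 8-S, and to 338 to 444 and 497 to 630 in RA; 3 of them were at 0 in DMSO 3-S and 1 in each of the other 3 groups. Between DMSO 3-S and DMSO 8-S the epidermis markers overlapped (2951 to 3346 and 2500 to 3748 CPM), as did the blood and vessel, notochord and neural crest lists. The summed endoderm markers were lower at 8-S (1053 to 1192 and 653 to 967 CPM), though FOXA2 averaged 294 and 330 CPM. Not every list was higher in NE cells. In NE 3-S the epidermis markers summed to 1131 to 1352 CPM, below DMSO 3-S. The notochord markers summed to 100 to 124 CPM in NE 3-S and 469 to 706 in DMSO 3-S. Of the neural list, ISL1 averaged 22.9 CPM in NE 3-S and 222 in DMSO 3-S, while the list summed to 1493 to 1612 in NE 3-S. The part of other cell types in the member values was not tested. Of the 5 members with the greatest DMSO change without overlap, pdx1, FOXQ1 and itga6l were at or below 1 CPM in every NE library, while col18a1a had 206 to 532 CPM and NPR3 3.94 to 11.5 CPM there. WNT4 and RET, with DMSO changes of 1.504 and 1.4954, had 8.99 to 19.9 and 2.01 to 10.99 CPM in NE libraries.

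BMS493 libraries were not used by the conditions, and those of BMS493 and RA were compared with the same DMSO libraries, so these values are given side by side without a test. At 3-S the BMS493 minus DMSO difference of the 33 genes had a median of 0.08, against 0.03 over all genes. BMS493 lay below every DMSO library in 1 gene, pdx1 (3.48% of genes), and above in 3, s100s, KIRREL3 and siae (5.55%). Genes low in DMSO 3-S meet the 3-S conditions more readily, so BMS493 values above DMSO at 3-S are favoured in advance. RA lay above every BMS493 library at 3-S in 26 (8.48%), a count that the choice of genes high in RA favours. Genes high in DMSO 8-S meet the 8-S condition more readily, so BMS493 values below DMSO at 8-S are favoured in advance for the whole set. At 8-S the median BMS493 minus DMSO difference was -0.71 (all genes -0.07, the 318 other raised genes -0.73), and BMS493 lay below every DMSO library in 14 of 33 (6.01%) and below every RA library in 11 (8.94%). Of these 14, 7 were among the 11 genes higher in DMSO cells only, 6 among the 12 with both changes and 1, DUSP28, among the 10 lower in RA cells only.

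For the 11 genes higher in DMSO cells only, chosen on DMSO 8-S libraries so that a smaller change in any other group is favoured in advance, the median change from 3-S to 8-S was 1.504 in DMSO cells and 0.05 in BMS493 cells, and the median BMS493 minus DMSO difference at 8-S was -1.35 (-4.12 to -0.66). The extreme was pdx1, with 1.37, 0.396 and 0.584 CPM in BMS493 3-S and 1.01, 0.466 and 0.558 in BMS493 8-S. WNT4 had 0.451, 0.388 and 0.768 CPM in BMS493 8-S. FOXQ1, which is not among the 11 but among the genes with both changes, had 0.364, 0.792 and 0 CPM in BMS493 3-S and 0.226, 0 and 0.279 in BMS493 8-S. These levels at 8-S lay below all DMSO 8-S libraries of the same gene. Exceptions were col18a1a, which was 1.58 higher in BMS493 8-S than in BMS493 3-S, and col8a1a, which was 1.1 higher. Both remained below DMSO 8-S on average, by 0.83 and 1.97. In the other direction, sult2st1 changed by -1.125 and NPR3 by -0.54 from BMS493 3-S to BMS493 8-S.

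The tests of these genes used only the NE and BMS493 libraries, with DESeq2 on all genes and a Benjamini-Hochberg adjusted p under 0.01. BMS493 endodermal cells against NE cells asks whether genes differ between endoderm exposed to BMS493 and non-endoderm of DMSO embryos. At 8-S the embryos had been washed and raised without BMS493. Cell type and treatment differ together and cannot be told apart in this test. DMSO endodermal cells share the treatment of NE cells, but the conditions used their libraries, so that comparison was not tested. At 3-S, 28 of the 33 genes had an adjusted p, of which 4 were higher in BMS493 cells (5.49% of genes tested) and 3 lower (4.79%). At 8-S, 30 had one, with 2 higher (6.01%) and 5 lower (5.75%). The quasi-likelihood test of edgeR tested 26 of the 33 genes and called 2 and 2 at 3-S and 1 and 3 at 8-S. Of all 15610 genes it tested, it called 588 higher and 488 lower at 3-S, and 643 and 512 at 8-S. The median log2 fold change was 0.26 at 3-S (all genes 0.04) and -0.33 at 8-S (all genes -0.07). Deviations from group means correlated between NE and DMSO libraries of the same number (0.558 to 0.743 at 3-S, 0.236 to 0.417 at 8-S). The conditions used the DMSO libraries, so low NE values at 3-S and high NE values at 8-S are favoured in advance. Nothing is read from these medians, and the counts of calls are not fully free of the choice. Without BMS493 3-S replicate 1, 4 genes in all were called at 3-S, 2 of them higher, and 2 were higher without NE 3-S replicate 2. Without BMS493 8-S replicate 2, 3 were lower at 8-S.

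Among genes higher in BMS493 endodermal cells than in NE cells, itga6l had 12.3, 3.27 and 9.53 CPM in BMS493 3-S and 0.382, 0.732 and 0 in NE 3-S. No library of the 2 groups overlapped, the log2 fold change was 4.42 (SE 0.84, DESeq2 adjusted p = 3.93e-06), and at 8-S it was 3.75 (SE 0.79, adjusted p = 4.17e-05; edgeR 0.01). FHL1 was higher at both stages, by 1.72 (SE 0.43, DESeq2 adjusted p = 0.000951) and 1.87 (SE 0.42, adjusted p = 0.000175). At 3-S hsd17b14 was higher by 1.54 (SE 0.33, DESeq2 adjusted p = 4.86e-05) and sult2st1 by 2.26 (SE 0.60, adjusted p = 0.00194). Neither was called at 8-S, with 1.02 for hsd17b14 (SE 0.32, DESeq2 adjusted p = 0.0121) and -0.10 for sult2st1 (SE 0.59, adjusted p = 0.936). At 3-S sult2st1 averaged 25.3 CPM in BMS493, 9.22 in DMSO and 5.11 in NE cells. With edgeR, FHL1 and sult2st1 had adjusted p = 0.0196 and 0.0248 at 3-S, past the limit.

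Genes lower in BMS493 endodermal cells than in NE cells included a matrix gene, a ligand and a receptor. For col18a1a the NE libraries had 532, 304 and 294 CPM at 3-S and 206, 285 and 229 at 8-S, and the BMS493 libraries 16.0, 5.64 and 7.68 and then 23.3, 24.8 and 40.9. The groups were far apart, with log2 fold changes of -5.31 (SE 0.41, DESeq2 adjusted p = 2.82e-35) and -2.97 (SE 0.41, adjusted p = 1.94e-11). For WNT4 the NE libraries had 19.0, 19.9 and 19.7 CPM at 3-S and 14.7, 19.8 and 8.99 at 8-S, against at most 0.768 in any BMS493 library. Its log2 fold changes were -6.30 (SE 0.67, DESeq2 adjusted p = 8.44e-19) and -4.66 (SE 0.54, adjusted p = 1.08e-15). RET was lower by -2.52 (SE 0.62, DESeq2 adjusted p = 0.000817; edgeR 0.0118) at 3-S and -4.13 (SE 0.63, adjusted p = 2.69e-09) at 8-S. At 8-S only, HS6ST1 was lower by -3.16 (SE 0.82, DESeq2 adjusted p = 0.00157, edgeR 0.0258). ENSDARG00000043376 was also lower at 8-S only, by -1.43 (SE 0.42, DESeq2 adjusted p = 0.00628, edgeR 0.0276). This gene averaged 9.50 CPM in BMS493 8-S, 26.8 in NE 8-S and 28.7 in DMSO 8-S. Its DMSO endodermal cells were thus not below NE cells on average at 8-S.

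**Figure D5:**
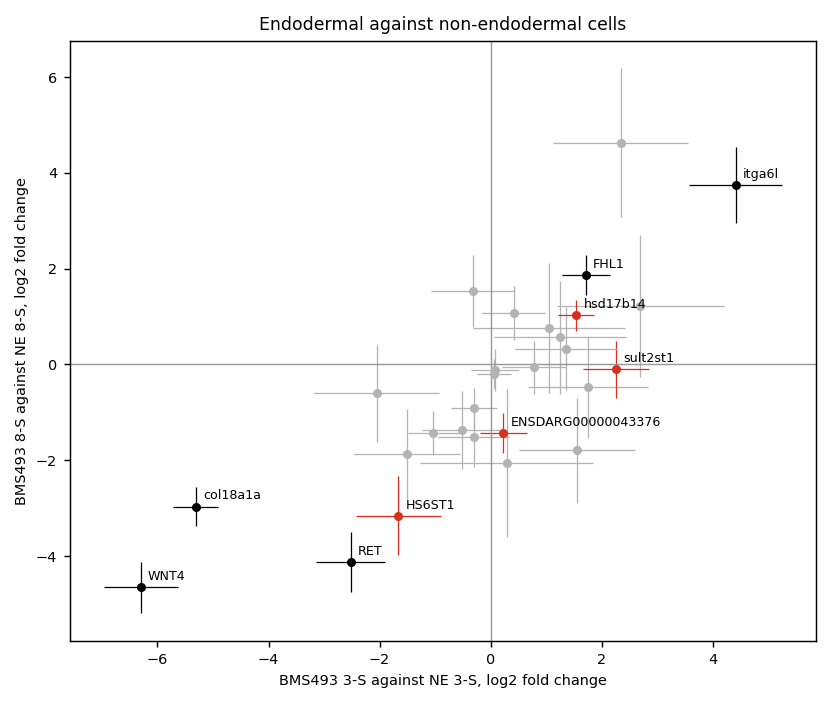
DESeq2 log2 fold change of BMS493 endodermal against NE cells at 3-S (horizontal) and at 8-S (vertical) for the 28 members with an adjusted p at both stages; bars are standard errors. Black genes were called at both stages, red genes at 1 stage and grey genes at neither; col18a1a, WNT4 and RET lie at the lower left and itga6l at the upper right.

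Against stage, no member was called in either group. From BMS493 3-S to BMS493 8-S, DESeq2 called 0 of 23 members with an adjusted p (of all genes tested 0.192%, 0.17% higher and 0.0222% lower), with unadjusted p under 0.05 for 2 that were higher and 2 lower, and edgeR called 0. Without BMS493 3-S replicate 1, 1 was called. From NE 3-S to NE 8-S, DESeq2 called 0 of 33 (0.0143%), with unadjusted p under 0.05 for 5 that were higher and 0 lower, and edgeR called 0. The difference between the BMS493 and the NE stage change was called by DESeq2 in 0 of 33 (0.0107% higher and 0.00356% lower over all genes), with unadjusted p under 0.05 in 1 and 3 genes, and by edgeR in 0. In each of these comparisons edgeR called 0 of all 15610 genes tested, so its 0 for the members says nothing about them. The median log2 fold change was -0.09 in BMS493 cells (all genes -0.03) and 0.38 in NE cells (all genes 0.03). A rise in NE cells is favoured in advance through the DMSO libraries of the same number, so nothing is read from it.

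In the fit over all 24 libraries, on the libraries that chose the genes, the counts restate the choice and nothing is read from them: DESeq2 called 15 of the 33 genes higher in RA 3-S than in DMSO 3-S and 0 lower (2.09% and 2.39% of genes tested; edgeR 6 and 0), against 273 of the 318 other raised genes. For RA against DMSO at 8-S it called 0 (3.01% among all, 1.09% higher and 1.92% lower; edgeR 0, and in DESeq2 0 with unadjusted p under 0.05) and 142 of the 318 others higher. The change of the RA effect between the stages was called in 0 of the 33 (0.00686%), with 17 lower at an unadjusted p under 0.05, and in edgeR in 0. Without RA 8-S replicate 3, DESeq2 called 1. Of all 16800 genes tested, edgeR called 197 higher and 256 lower for RA against DMSO at 3-S, and 75 and 185 at 8-S. For the change of the RA effect edgeR called 0 of them.

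The lists of pathway genes hold none of the 33 genes, and the matrix and adhesion list does not include the collagens col18a1a and col8a1a, itga6l or KIRREL3, so that the 0 follows from what the lists hold. Of 50 retinoid pathway and anterior hox gene IDs, which include the RA-degrading Cyp26 enzymes and the receptors, 17 were called higher in RA than in DMSO at 3-S and 8 lower, and 11 and 8 at 8-S. The 3-S conditions took 15 of them, and all 15 kept a difference of at least 0.5 at 8-S. So did 318 of all 351 genes that the 3-S conditions took, so nothing particular to this list is read from it. Among 29 neurogenesis genes the calls at 3-S were 7 up and 4 down, and at 8-S 2 and 3. Among 31 matrix and adhesion genes they were 3 and 3, then 1 and 4, and among 22 stress genes 1 and 0, then 0 and 0. Of all genes tested, 2.09% were called higher and 2.39% lower at 3-S, and 1.09% and 1.92% at 8-S.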

How the data were processed

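Sorted cells went through SMART-seq2 cDNA synthesis and Nextera XT tagging, and the single-end reads were mapped by the authors to Zv9 with STAR (version 2.5.4 in the submitters' processing notes). The deposited files hold raw whole-number counts per gene for each library, made by the authors without normalisation. The column that ignores strand was used, so that overlapping genes are uncertain, and multi-mapped reads were not counted. The first 4 rows, which name no gene, held 21.25 to 35.74% of the reads listed and were left out, as was 1 gene ID that took 15.5 to 32.6% of gene counts, before CPM was computed. Symbols came from a supplied table (21939 of 33737 IDs, 65.0%), often as human symbols shared by paralogues. Gene lengths and sequences were not used here.

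The members and lists were chosen with earlier results of these data known. Named genes were those with the 12 greatest drops of the RA minus DMSO difference among members with a mean of at least 5 CPM in RA 3-S, the 8 highest in RA 3-S, the nearest to the limits, up to 5 called per test and direction, and up to 5 with the greatest changes without overlap in RA and in DMSO cells; the remaining members are named to account for all 33.

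Tests were made with DESeq2 (version 1.42.0, R version 4.3.3; Wald test, group as the only factor, Benjamini-Hochberg over all genes, limit 0.01) on the 12 NE and BMS493 libraries. RA and DMSO counts came from a fit of all 24 libraries and are a description. Alternatives were edgeR (version 4.0.16), TMM scaling, a count filter, other pseudocounts, the strand columns, a replicate block and each library left out. The DESeq2 step was tested on simulated counts of 33737 genes, for BMS493 8-S against 3-S with 100 genes raised and 100 lowered by a fold of 4. It recovered 89 and 77 and called 20 unchanged genes, and edgeR recovered 63 and 40 and called 3. The 20 unchanged genes were a larger share of the DESeq2 calls than the adjusted p limit of 0.01 stands for. To a smaller degree this held for the 3 of edgeR. Calls by either tool are therefore less firm than that limit, those of DESeq2 more so. How far the calls of the tools coincided was not tested. The changed genes were drawn only from genes above a set mean count, so the recovery does not hold for members with few counts. DUSP28, for example, had 3 counts over the BMS493 3-S libraries and 2 over the BMS493 8-S libraries.

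The groups share replicate numbers in their labels. The deviations from group means of same-numbered libraries correlated between -0.414 and 0.623 over the 4 tested comparisons, so the numbers were not taken to pair those samples. DMSO endodermal and NE libraries with the same number correlated at 0.558 to 0.743 at 3-S and 0.236 to 0.417 at 8-S, but were not tested against each other. Since the conditions used the DMSO libraries, NE values are not fully free of the choice of genes.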

Additional observations from a re-analysis of the deposited data

Results flagged for a closer look

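For col18a1a, the basement membrane collagen, the stage change had opposite signs in 2 groups that the conditions did not use. Every BMS493 8-S library was above every BMS493 3-S library, with a change of 1.58 in log2(CPM + 1), and every NE 8-S library was below every NE 3-S library, with a change of -0.61. Tested as the difference of the log2 stage changes, BMS493 minus NE, it was 2.34 (SE 0.58, DESeq2 adjusted p = 0.0847), which does not pass the limit. The test was made for the gene after its values were seen.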

How the results depend on the processing

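Against 33 genes, 52 met the conditions with a pseudocount of 0.5 (28 of the 33 among them) and 21 with a pseudocount of 2 (17 of the 33). With TMM scaling 25 met them (22 of the 33). With strand column 3 the number was 37 (21 of the 33) and with strand column 4 it was 35 (24 of the 33). Of the genes then meeting them, 42 and 15 with the 0.5 and 2 pseudocounts were at least 0.5 higher in DMSO 8-S. With TMM scaling 15 of the 25 were so, and with a pseudocount of 2, 14 were at least 0.5 lower in RA 8-S. Choosing the genes anew with each library left out gave 14 to 74 genes, of which 8 to 61 were lower in RA 8-S and 10 to 44 higher in DMSO 8-S. The number was 14 without RA 8-S replicate 1. It was 61 and 56 without DMSO 3-S replicates 2 and 3, 63, 74 and 52 without RA 3-S replicates 1, 2 and 3, and 51 without DMSO 8-S replicate 2 and without RA 8-S replicate 2 or 3. With the 33 kept, 13 were lower in RA 8-S without RA 8-S replicate 1 and 18 higher in DMSO 8-S without DMSO 8-S replicate 1, alternatives chosen after seeing the data.

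With each library left out, calls in the tests ranged from 4 to 7 for BMS493 against NE at 3-S (2 to 4 higher, 2 to 3 lower), 5 to 9 at 8-S (2 to 3 higher, 3 to 6 lower), 0 to 1 for BMS493 8-S against 3-S, 0 to 0 for NE 8-S against 3-S, 10 to 17 for RA against DMSO at 3-S and 0 to 1 for the change of the RA effect. With edgeR, 4 of the 26 members tested were called for BMS493 against NE at 3-S, 2 of them higher. At 8-S it called 4 of 26, 1 higher and 3 lower, and for RA against DMSO at 3-S 6 of 33.

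A fit with the replicate number as a block, where the numbers do not pair the samples, moved no count of calls by more than 1.5 times. Of the named genes, ENSDARG00000043376 at 8-S changed its call, with a log2 fold change of -1.37 (DESeq2 adjusted p = 0.0102). Of the genes named in the BMS493 against NE tests, none changed direction with edgeR or with the block. The 8-S RA minus DMSO difference turned positive without RA 8-S replicate 1 for si:dkey-15j16.3 (-0.68 to 1.33), si:dkey-15j16.6 (-0.54 to 1.53), sult2st1 (-0.14 to 0.52), col8a1a (-0.02 to 0.66) and siae (-0.09 to 0.19), and the change in RA cells turned positive for NPR3 (-0.37 to 0.23), FLVCR2 (-0.18 to 0.28), sult2st1 (0.32), col8a1a (0.43), si:dkey-15j16.3 (0.25) and si:dkey-15j16.6 (0.48). Depth limits the 9 genes with a mean under 5 CPM in RA 3-S, whose control libraries often held a few counts.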
